A study of Mus musculus with 10 samples.

Results

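The genes described here encode granins, related cargo, membrane proteins of the dense-core secretory granule and a factor that primes granules for release. From the 53801 genes counted, 10 were taken: *Chga*, *Chgb*, *Scg2*, *Scg3*, *Vgf*, *Nucb2*, *Pam*, *Ptprn*, *Ptprn2* and *Cadps*. They were chosen by name and function, with earlier results of these data known, and matched to Ensembl gene identifiers. All 10 had enough reads to be tested. RNA came from AtT20/D16v-F2 cells, a mouse pituitary tumour line of corticotroph type. The comparison was between a stable AtT20 line transduced with lentivirus for *Creb3l1*-shRNA1, a short hairpin RNA (shRNA) directed against the transcription factor Creb3l1, and a stable line transduced with lentivirus for a non-targeting control shRNA, so that both lines carried an shRNA vector. Each line gave 5 libraries of poly(A)-selected RNA. Each shRNA was represented by 1 stable line, so the spread between its 5 libraries is the spread within that line, and a difference between the lines cannot be told apart from a difference between the shRNAs. Both lines were grown in the same medium, with no other treatment given in the labels.

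Dense-core granules store peptide hormones until a signal releases them. Granins are acidic soluble proteins that aggregate with hormones in the calcium-rich, mildly acidic lumen of the trans-Golgi network, and this condensation helps to load the granule. Several granins are themselves cut into peptides. Around this cargo lies a membrane with its own proteins: the amidating enzyme PAM, which finishes many peptides at their carboxyl end, and the receptor-type phosphatase relatives PTPRN (IA-2) and PTPRN2 (phogrin), which span the granule membrane. CADPS (CAPS1) is a cytosolic protein that primes docked granules for release. In corticotrophs this pathway carries pro-opiomelanocortin (POMC), the precursor of adrenocorticotrophic hormone.

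Creb3l1 belongs to the CREB3 family, whose members bind DNA words related to the cAMP response element and the G-box, so the start regions of these genes were searched for such words. RefSeq windows for GRCm38.p6, each from 250 bases before to 50 bases after a transcription start, were present for 9 of the 10 genes (11 windows), and both strands were read. *Vgf* had no window, so its start region was not searched. The cAMP response element TGACGTCA occurred in 1.79% of all 32851 windows and in 2 of the 11 windows described here, those of *Chgb* and *Scg2*. The related word TGACGTAA occurred in 0.499% of all windows and here in that of *Chga*. GACGTG occurred in 6.38% of all windows and here in that of *Nucb2*, on the opposite strand, so that it is printed as its reverse complement, CACGTC. The palindromic G-box CACGTG, in 7.15% of all windows, was in 0 of the 11, and so was TGACGTGG, which contains GACGTG and was in 0.676% of all windows. These are matches of letters only, and binding was not measured. The 4 regions that hold a word are shown so that its place and its neighbours can be seen. Each stretch is 200 bases, ends at the base before the RefSeq start and is written 5′ to 3′ on the gene's strand, with the word in capitals. *Chgb* is chr2:132781442-132781641 on the plus strand, *Scg2* is chr1:79440027-79440226 on the minus strand, *Chga* is chr12:102554741-102554940 on the plus strand and *Nucb2* is chr7:116504169-116504368 on the plus strand.
Chgb: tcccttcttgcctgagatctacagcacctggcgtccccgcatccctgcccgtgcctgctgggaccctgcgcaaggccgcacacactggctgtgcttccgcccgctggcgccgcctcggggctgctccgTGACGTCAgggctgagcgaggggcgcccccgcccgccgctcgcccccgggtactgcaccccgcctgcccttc
Scg2: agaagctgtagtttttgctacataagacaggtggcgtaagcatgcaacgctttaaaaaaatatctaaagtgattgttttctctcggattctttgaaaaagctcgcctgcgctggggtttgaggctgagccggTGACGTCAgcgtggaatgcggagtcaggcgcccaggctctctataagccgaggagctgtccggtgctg
Chga: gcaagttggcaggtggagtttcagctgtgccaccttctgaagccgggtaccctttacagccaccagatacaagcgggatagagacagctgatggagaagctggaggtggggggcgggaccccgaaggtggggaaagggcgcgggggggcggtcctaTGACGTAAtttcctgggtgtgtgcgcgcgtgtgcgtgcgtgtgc
Nucb2: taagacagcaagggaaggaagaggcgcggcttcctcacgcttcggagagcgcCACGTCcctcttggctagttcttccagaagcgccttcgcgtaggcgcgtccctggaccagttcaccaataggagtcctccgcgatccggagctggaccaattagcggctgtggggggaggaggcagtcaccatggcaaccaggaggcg

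The first base of the word lay at -72 in *Chgb*, -68 in *Scg2*, -44 in *Chga* and -148 in *Nucb2*, counted from the RefSeq start. GENCODE places the start of the *Chgb* gene 364 bases and that of *Scg2* 94 bases further upstream, so that in that annotation both words lie inside the gene. The *Pcsk1* window, for comparison, held GACGTG at -49 and TGACGTCA at -78.

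Between 17420698 and 22205107 reads were counted on genes per library, and 14336 genes could be tested. *Creb3l1* itself fell from 3689 ± 148 normalised counts in the non-targeting line to 1090 ± 59.2 in the knockdown line (mean ± SD, n = 5 libraries each, as throughout). Normalised counts are counts scaled to a common library size. In non-targeting replicate 3 a single non-coding RNA, *Gm42418*, took 4.13% of counts, against at most 0.191% in any other library. The count of genes called among the 10 was 6 higher and 2 lower without that library, as with it. Of 6 corticotroph markers, *Pomc*, *Tbx19*, *Neurod1* and *Pitx1* were all expressed, *Crhr1* was between 17.1 and 43.6 normalised counts, and *Avpr1b* was at 0 in every library. Markers of other pituitary cell types summed to between 56.9 and 110.0 normalised counts per library, with 5 of 12 at 0 throughout (*Prl*, *Pou1f1*, *Tshb*, *Fshb* and *Gnrhr*). Stromal, endothelial and immune markers summed to between 39.6 and 72.6, with 3 of 8 at 0 (*Ptprc*, *Cdh5* and *Lum*). Both sums were lower in the knockdown line, at 56.9 to 78.7 against 86.7 to 110.0 and at 39.6 to 54.3 against 54.5 to 72.6. *Nr5a1* made most of the first sum, at 69.8 to 94.1 in control and 51.2 to 70.2 in knockdown libraries. *Cd68* made most of the second, at 33.9 to 51.9 in control and 24.6 to 38.2 in knockdown libraries. By the test described below neither gene was called. *Pecam1* was called lower, at 10.6 to 18.3 in control and 4.28 to 7.45 in knockdown libraries. The part of both sums in the results was not tested.

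Knockdown of *Creb3l1* was accompanied by changes in most of these genes, in both directions. *Chga*, *Chgb*, *Scg2*, *Pam*, *Ptprn2* and *Cadps* rose, *Vgf* and *Ptprn* fell, and *Scg3* and *Nucb2* did not pass the test. The test was the quasi-likelihood test of edgeR, with p-values adjusted over all genes tested by the method of Benjamini and Hochberg, and a gene was called at an adjusted p below 0.01. By that rule 8 of the 10 were called, 6 higher and 2 lower, where 40.7% of all genes tested were called, 20.6% higher and 20.1% lower. Calls are more frequent among abundant genes, and of the 6349 genes with a mean count at least that of the lowest of the 10, 52.5% were called. The libraries of the lines did not overlap for the 8 genes called, and 36% of all genes tested had no overlap. *Scg2*, *Ptprn2*, *Cadps* and *Ptprn* (4 of the 10) also changed by at least 1.5-fold, which 7.73% of all genes did, and 2.77% of those as abundant. The median log2 fold change was 0.20 over the 10 genes and -0.0025 over all genes tested. In bulk RNA, fewer cells expressing a gene and less of its RNA per cell cannot be told apart.

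**Figure D1:**
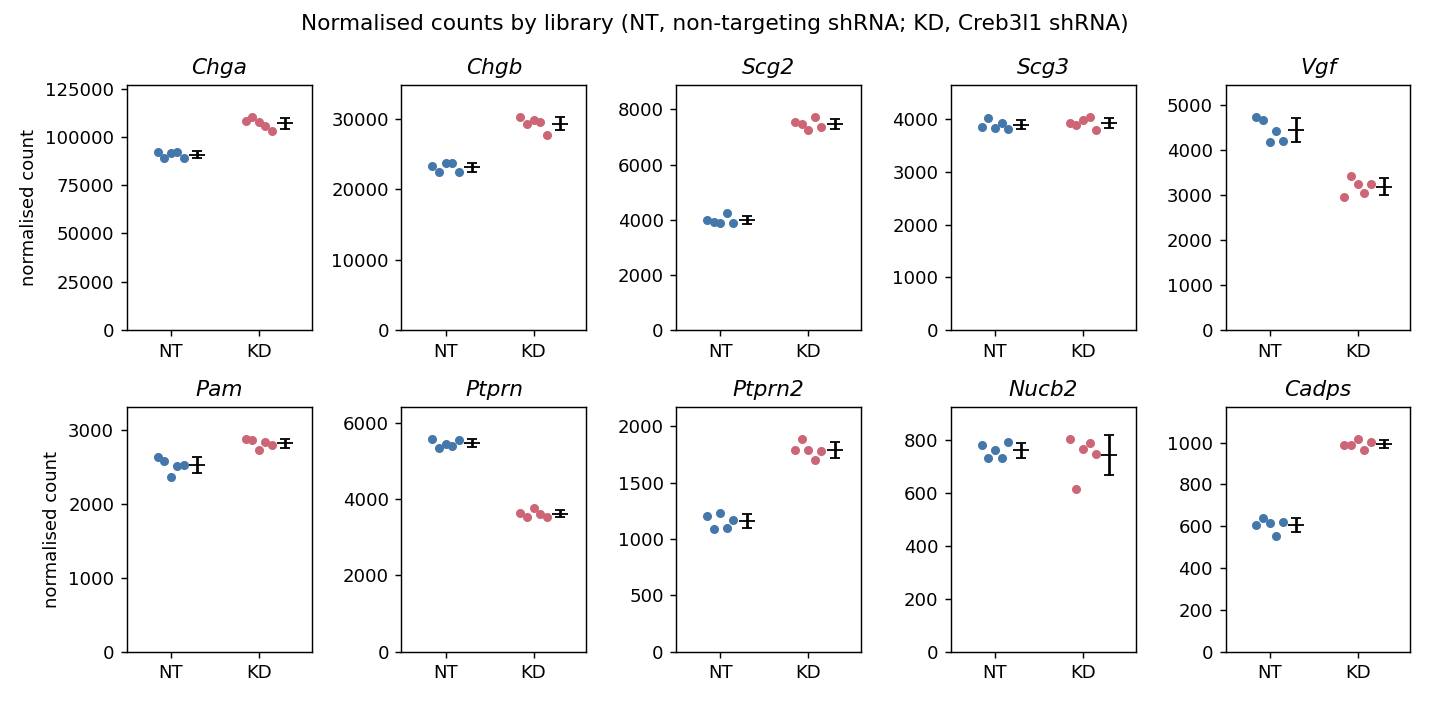
Normalised count (y axis, from 0) of each of the 10 genes in each library, with blue points for the 5 non-targeting (NT) libraries and red points for the 5 *Creb3l1* knockdown (KD) libraries; the black mark is the mean ± SD. The points of the lines are apart in 8 panels and overlap for *Scg3* and *Nucb2*, where 1 knockdown library of *Nucb2* lies at 617.5.

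Of the soluble granins, secretogranin II changed most. *Scg2* (chromosome 1, 79434669 to 79440120, minus strand, GRCm38) encodes the precursor of secretoneurin. Its normalised counts in non-targeting replicates 1 to 5 were 4000.2, 3909, 3884, 4244 and 3890.4, and in knockdown replicates 1 to 5 they were 7554, 7481, 7239.8, 7731 and 7351. Every knockdown library was higher than every control library. The mean rose from 3986 ± 152 to 7471 ± 189, a log2 fold change of 0.91 (SE 0.028, quasi-likelihood adjusted p = 1.4e-27). By size of log2 fold change it was 558th of the 14336 genes tested. The study also measured *Scg2* by quantitative PCR in its knockdown cells and reported a significant change, whose direction its text does not state.

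Chromogranin A is the most abundant RNA of the set and a main component of the granule core. *Chga* lies on chromosome 12 from 102554969 to 102565028. It had 92111, 88902, 91519, 92351 and 89221 normalised counts in the non-targeting libraries and 108273, 110390, 107637, 105847 and 102919 in the knockdown libraries. The groups did not overlap, yet the rise was small, from 90821 ± 1638 to 107013 ± 2807 (log2 fold change 0.24, SE 0.018, quasi-likelihood adjusted p = 8.9e-15). Its log2 fold change ran from 0.23 to 0.33 under the alternative analyses. Chromogranin B, its relative in the granule core, rose somewhat more. *Chgb* (chromosome 2, 132781278 to 132795079) was counted at 23265, 22442, 23659, 23705 and 22483 in the control line and at 30273, 29233, 29876, 29507 and 27710.5 in the knockdown line. Its mean went from 23111 ± 616 to 29320.1 ± 981 (log2 fold change 0.34, SE 0.022, quasi-likelihood adjusted p = 2.5e-16). For *Chgb* the alternative analyses gave 0.33 to 0.40. The lowest knockdown library of *Chgb*, replicate 5, was also the lowest for *Chga*.

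Secretogranin III, which binds chromogranin A and cholesterol-rich granule membrane, did not rise with *Chga*, *Chgb* and *Scg2*. *Scg3* (chromosome 9, 75643189 to 75684056, minus strand) had 3862, 4029, 3836, 3934 and 3821 normalised counts in the control libraries and 3924, 3902, 3995, 4049.6 and 3802 in the knockdown libraries. The ranges lay on top of each other. The log2 fold change was 0.014 (SE 0.027, quasi-likelihood adjusted p = 0.70), and under the alternative analyses it stayed between 0.0041 and 0.041.

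*Vgf*, a granin-like precursor of several neuroendocrine peptides, went the opposite way. It lies on chromosome 5 from 137026392 to 137033351. The control libraries held 4742, 4674, 4184, 4435 and 4196 normalised counts, and the knockdown libraries 2957, 3428, 3251, 3038 and 3259. All 5 knockdown libraries were below all 5 controls. The mean fell from 4446 ± 261 to 3186 ± 189 (log2 fold change -0.48, SE 0.045, quasi-likelihood adjusted p = 3.2e-07). Beside it stand the granule's main cargo and its convertase. *Pomc* had a log2 fold change of -0.51 (131411 ± 4050.0 to 92045 ± 2652 normalised counts) and *Pcsk1*, which encodes the prohormone convertase PC1/3, of -0.46 (9981 ± 179 to 7269 ± 196). Under the alternative analyses *Pomc* lay between -0.53 and -0.38 and *Pcsk1* between -0.53 and -0.44. By quantitative PCR the study reported less *Pcsk1* mRNA but unchanged *Pomc* mRNA in its knockdown lines.

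*Nucb2*, which encodes the calcium-binding precursor of nesfatin-1, was the least precise of the 10. On chromosome 7 from 116504369 to 116540584, it had between 733.3 and 794.9 normalised counts in the control libraries. The knockdown libraries held 806.7, 617.5, 765.9, 789.3 and 747.0. Replicate 2 was the lowest of all 10 libraries, and the others spread over and around the control range. The log2 fold change was -0.029 (SE 0.053, quasi-likelihood adjusted p = 0.68), and without knockdown replicate 2 it was 0.031.

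Of the membrane proteins, the pair of phosphatase relatives moved apart. *Ptprn* (chromosome 1, 75247027 to 75264502, minus strand) had 5582, 5328, 5454, 5400.1 and 5550.0 normalised counts in the control libraries. In the knockdown libraries it had 3631, 3540.4, 3769.9, 3620.4 and 3539. The groups lay far apart relative to their spread, with means of 5463 ± 104.9 and 3620.1 ± 94.2 (log2 fold change -0.59, SE 0.027, quasi-likelihood adjusted p = 7.1e-22). An antisense gene, *Gm28294*, overlaps 4.45% of the *Ptprn* exons and had 0 counts in every library.

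*Ptprn2* (chromosome 12, 116485720 to 117276849) had 1202, 1091, 1226, 1096 and 1172 normalised counts in the control libraries and 1791, 1890.1, 1787, 1697 and 1784 in the knockdown libraries. Every knockdown library exceeded every control. The log2 fold change was 0.63 (SE 0.037, quasi-likelihood adjusted p = 4.3e-18), from a mean of 1157.5 ± 61.4 to 1789.7 ± 68.4.

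*Pam* encodes the enzyme that amidates peptides and that is carried both in the granule lumen and in its membrane. It lies on chromosome 1 from 97795114 to 98095646, on the minus strand. Its libraries ranged from 2358 to 2639 normalised counts, with a median of 2531, in the control line and from 2724 to 2881, with a median of 2834, in the knockdown line. The gap between the ranges was narrow, and the rise was the smallest of those called (log2 fold change 0.16, SE 0.031, quasi-likelihood adjusted p = 2.8e-05). A non-coding gene on the same strand, *B230216N24Rik*, shares 1.58% of the *Pam* exons and had 14 to 38 counts per library.

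*Cadps*, the priming factor, rose in every knockdown library relative to every control library. It lies on chromosome 14 from 12372563 to 12823079, on the minus strand. The control libraries held 605.5, 640.0, 616.2, 551.2 and 621.4 normalised counts, and the knockdown libraries 988.6, 986.8, 1019.1, 966.5 and 1003.3. The priming factor thus showed a gap wider than the range of either group. The log2 fold change was 0.71 (SE 0.043, quasi-likelihood adjusted p = 1.3e-17), and it was 0.61 when GC content and transcript length were corrected for in each library, where *Ptprn2* was also at 0.61. Its paralogue *Cadps2* had 0 counts in all 10 libraries, so *Cadps* was the only CAPS gene with counts.

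**Figure D2:**
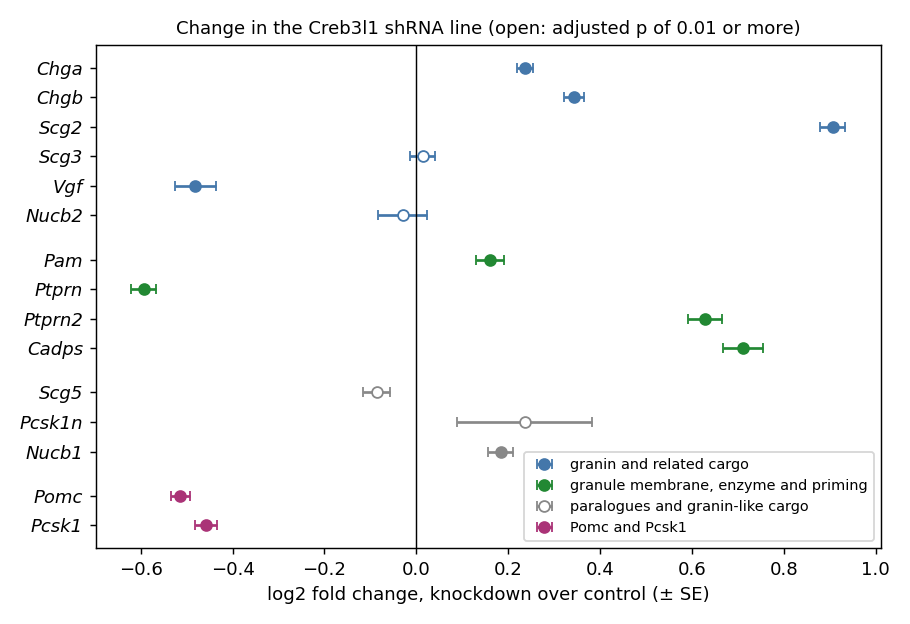
Log2 fold change of the knockdown over the non-targeting line (x axis) for the 10 genes, their paralogues and granin-like relatives, and *Pomc* and *Pcsk1*. Bars are ± SE, and open points had an adjusted p of 0.01 or more. Among the granins *Scg2* lies farthest to the right (0.91) and *Vgf* to the left (-0.48), and *Ptprn* (-0.59) and *Ptprn2* (0.63) lie on opposite sides of 0.

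The relatives of these genes were read beside them. *Nucb1*, the paralogue of *Nucb2* and a Golgi calcium-binding protein, rose from 2973 ± 87.5 to 3377 ± 34.0 normalised counts (log2 fold change 0.18, SE 0.027, quasi-likelihood adjusted p = 3.5e-07). *Scg5*, which encodes the 7B2 chaperone of the convertase PC2, had a log2 fold change of -0.086 (SE 0.029, quasi-likelihood adjusted p = 0.014), and its libraries overlapped. With correction for GC content and transcript length it was -0.0065 (adjusted p = 0.85). *Pcsk1n*, which encodes proSAAS, an inhibitor of PC1/3, had a log2 fold change of 0.24 (SE 0.15, quasi-likelihood adjusted p = 0.22), with a wider spread between libraries than *Chga*. In the control line its libraries ran from 2321 to 3695 normalised counts and in the knockdown line from 2961 to 4220, and without non-targeting replicate 5 the log2 fold change was 0.15.

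Because abundance differed so widely between the genes, the change was also read as a change in composition. All 10 together took 0.671 ± 0.0180% of counted reads in the control line (0.646 to 0.688%) and 0.796 ± 0.0176% in the knockdown line (0.768 to 0.814%), with no overlap. *Chga* took 66.4% of those reads in the control line and 66.5% in the knockdown line, so it set most of the total. The share of *Scg2* went from 2.91 to 4.65% and that of *Chgb* from 16.9 to 18.2%. The share of *Ptprn* went from 3.99 to 2.25% and that of *Vgf* from 3.25 to 1.98%. *Scg3*, whose own level did not pass the test, went from 2.85 to 2.45%.

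Ratios within a library do not depend on how libraries are scaled, and 6 pairs were compared by a two-sided exact permutation test with adjustment over the 6. The counts in these ratios were not corrected for GC content or transcript length. Control libraries held 4.45 to 4.93 *Ptprn* reads for each *Ptprn2* read, and knockdown libraries held 1.87 to 2.13. Its mean went from 4.73 ± 0.193 to 2.03 ± 0.104, a log2 difference of -1.22 (SE 0.043). The ratio of *Scg2* to *Chga* went from 0.0439 to 0.0699 (log2 difference 0.67, SE 0.029) and that of *Scg2* to *Chgb* from 0.172 to 0.255 (log2 difference 0.56, SE 0.031). The change of *Scg2* thus differed from that of either chromogranin by more than the spread between libraries. The ratio of *Chga* to *Chgb* went from 3.93 ± 0.046 to 3.65 ± 0.089 (log2 difference -0.11, SE 0.017), and that of *Scg3* to *Chga* from 0.0429 to 0.0368 (log2 difference -0.22, SE 0.028). The ratio of *Nucb2* to *Nucb1* went from 0.256 to 0.221 (log2 difference -0.22, SE 0.079), and knockdown replicate 2 was the lowest at 0.180. For each of the 6 pairs the libraries of the lines did not overlap, and the exact permutation p and its adjusted value were 0.0079, the smallest that 5 against 5 libraries allow. No share without overlap was computed over other pairs of genes, and 36% of single genes tested had no overlap. Most of the pairs join genes whose log2 fold changes in these same libraries, given above, already differed.

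**Figure D3:**
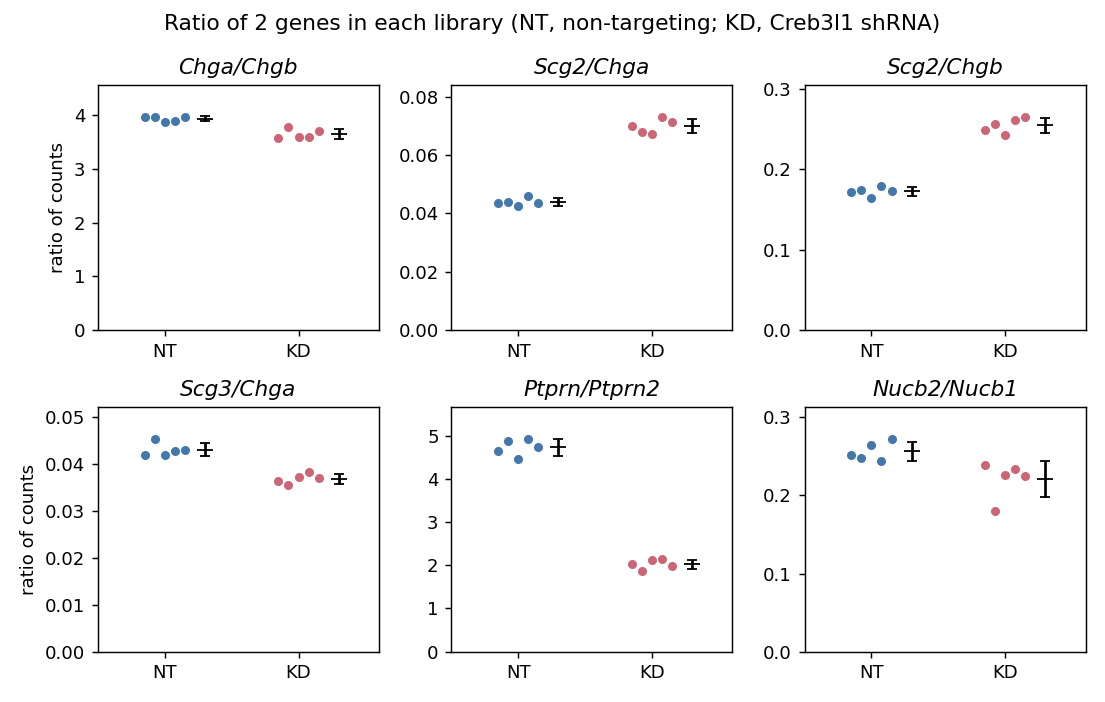
Ratio of the read counts of 2 genes in each library (y axis, from 0) for 6 pairs, with blue points for non-targeting (NT) and red points for knockdown (KD) libraries and the mean ± SD in black. *Ptprn* to *Ptprn2* lies at 4.45 to 4.93 in NT and at 1.87 to 2.13 in KD libraries, and no panel shows overlap. Other pairs of genes were not examined.

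Levels can be compared between genes only per length, and here normalised counts were divided by the kilobases of annotated exon. In the control line *Chga* stood at 32954 ± 594 normalised counts per kilobase, the 11th highest of all genes tested, and *Chgb* at 8435 ± 225, the 51st. *Chga* was 3.91-fold above *Chgb*, 20.8-fold above *Scg2* and 817-fold above *Cadps* on this scale. Below the chromogranins came *Scg2* (1585), *Vgf* (1496), *Scg3* (1423) and *Ptprn* (1286), then *Nucb2* (327), *Pam* (212), *Ptprn2* (135) and *Cadps* (40.3). In control libraries the ranges of *Scg2* and *Vgf* overlapped, as did those of *Vgf* and *Scg3*, so these neighbours were not apart beyond their spread. In the knockdown line no neighbours overlapped: *Scg2* stood clear at 2971 per kilobase, *Scg3* (1437) came before *Vgf* (1072), and the remaining order was unchanged. With the longest transcript as the length, *Scg3* (1634) came before *Scg2* in the control line and *Pam* (615) before *Nucb2* (398).

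**Figure D4:**
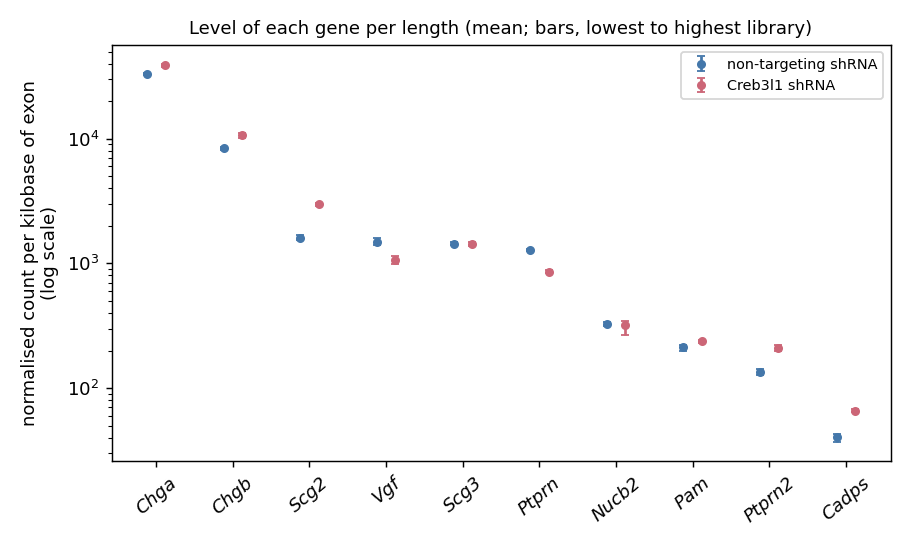
Normalised count per kilobase of exon (y axis, log scale) for the 10 genes in order of their level in the non-targeting line. Points are means of 5 libraries (blue, non-targeting; red, knockdown) and bars run from the lowest to the highest library. *Chga* (32954) lies 817-fold above *Cadps* (40.3) in the non-targeting line, and *Scg2*, *Vgf* and *Scg3* lie close together there.

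The wider pathway was read from lists of genes by role, in each of which some genes rose and others fell or did not pass the test. Of 30 peptide precursors, 7 had enough reads to be tested. *Iapp*, the amylin precursor, rose (log2 fold change 0.36, quasi-likelihood adjusted p = 0.0020), a call lost without knockdown replicate 5 (adjusted p = 0.014). *Pomc* and *Pthlh*, the precursor of parathyroid hormone-related protein, fell, and 4 others were not called. The fall of *Pthlh* (log2 fold change -0.64, quasi-likelihood adjusted p = 0.0012) was at a low level. It had 48.7 to 77.0 normalised counts in control and 29.4 to 54.6 in knockdown libraries, ranges that overlapped. The 3 of 7 called stand beside 40.7% of all genes tested. The median of the 7 was 0.0031, against -0.0025 over all genes tested.

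Among 19 genes of granule biogenesis, all tested, 4 rose, 4 fell and 11 were not called, with a median log2 fold change of 0.036. The share called was close to the 40.7% over all genes tested. *Syt4*, a synaptotagmin found on maturing granules, fell from 4304 ± 94.4 to 3104 ± 183 normalised counts (log2 fold change -0.47, SE 0.031, quasi-likelihood adjusted p = 2.1e-15). *Ccdc186*, a partner of the sorting complex EARP in granule cargo sorting, also fell (-0.27). *Stx6*, a SNARE of the trans-Golgi network and immature granule, rose (0.19). *Atp2c1*, a Golgi calcium and manganese pump, rose as well (0.17), a call lost when GC content and transcript length were corrected for (0.077, adjusted p = 0.077).

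Of 20 genes of granule docking and priming, the step in which CADPS acts, 16 were tested, and 6 rose, 4 fell and 6 were not called (median 0.021), where 40.7% of all genes tested and 52.5% of those with at least the mean count of *Nucb2*, the lowest of the 10, were called. The Rab effector *Rph3al* (noc2) rose from 177.0 ± 13.6 to 274.9 ± 23.4 normalised counts (log2 fold change 0.64, SE 0.080, quasi-likelihood adjusted p = 1.1e-08). *Rab27a*, a small GTPase of secretory granules, fell from 1548 ± 35.8 to 1195 ± 33.2 (log2 fold change -0.37, SE 0.034, quasi-likelihood adjusted p = 2.4e-12). *Snap25*, a plasma membrane SNARE, had a log2 fold change of -0.12 (adjusted p = 0.057).

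PAM needs copper and ascorbate, and of 12 genes for its cofactors and partners 10 were tested, of which 3 rose, 2 fell and 5 were not called (median 0.085), a share between the 40.7% of all genes tested and the 52.5% of the more abundant genes. *Cyb561*, the granule membrane cytochrome that passes electrons to lumenal ascorbate, rose from 3205 ± 74.4 to 4195 ± 100.1 normalised counts (log2 fold change 0.39, SE 0.027, quasi-likelihood adjusted p = 1.2e-15). *Uhmk1*, a kinase that binds the PAM cytosolic tail, rose by a log2 fold change of 0.21, and of 0.10 with correction for GC content and transcript length. The copper chaperone *Atox1* (-0.39, and -0.23 with that correction) and the copper importer *Slc31a1* (-0.17) both fell, and the copper pump *Atp7a* was not called (adjusted p = 0.028).

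All 12 listed regulators of neuroendocrine genes were tested, of which 6 rose and 0 fell (median 0.14). Of all genes tested 40.7% were called, 20.6% higher and 20.1% lower. Among genes with at least the mean count of *Nucb2*, 52.5% were called in either direction. The 6 regulators not called included *Rest*, the repressor of many neuronal and granule genes, which had only 16.1 to 37.9 normalised counts per library (log2 fold change -0.11, SE 0.23). *Neurod1*, a transcription factor of corticotrophs and other endocrine cells, rose from 1566 ± 64.6 to 2400 ± 82.3 (log2 fold change 0.62, SE 0.033, quasi-likelihood adjusted p = 3.2e-19). *Ptbp3*, of the family of polypyrimidine tract-binding proteins, rose by a log2 fold change of 0.54. Over all 6 corticotroph markers, 5 were tested, 2 rose (*Neurod1* and *Pitx1*), 2 fell (*Pomc* and *Tbx19*) and *Crhr1* was not called.

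**Figure D5:**
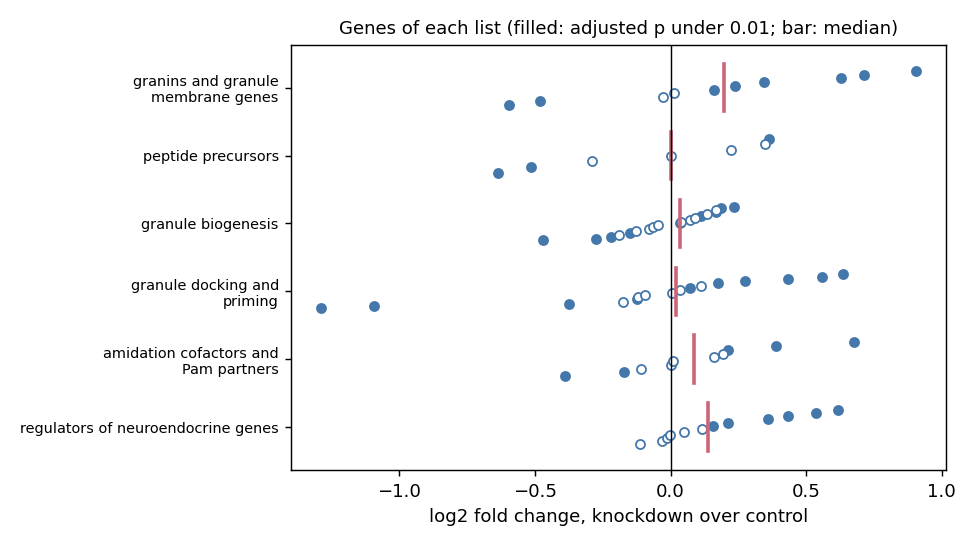
Log2 fold change of the knockdown over the non-targeting line (x axis) for each tested gene of 6 lists, 1 list per row, with filled points for an adjusted p below 0.01, open points otherwise and a red bar at the list's median. The 10 genes described here (top row) run from -0.59 to 0.91 with a median of 0.20, and the regulators (bottom row) hold 6 genes called higher and 0 called lower. Over all genes tested, 20.6% were called higher and 20.1% lower.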

How the data were processed

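RNA was sequenced from 10 libraries of AtT20 cells, 5 of each stable line. Libraries were made from poly(A) RNA with a stranded kit, and the authors used STAR for alignment to GRCm38 and featureCounts for counting. The strand setting of the counting is not given in the sources used here. They deposited raw counts per gene, without normalisation. Everything else was computed from these counts.

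Lines were compared with edgeR 4.0.16 in R 4.3.3 (filterByExpr, TMM factors, robust quasi-likelihood test, Benjamini-Hochberg adjustment over 14336 genes, threshold 0.01) and no covariate. SE is the log2 fold change divided by the square root of F. Depth was 17420698 to 22205107 counts per library, which limits low counts most. The study's methods call its replicates biological. The labels do not say how the libraries of a line were separated, so p-values measure the spread between libraries of 1 line. Symbols came from a separate list of gene names and were paired with 53620 of 53801 genes. Positions and exon lengths came from GENCODE M21 (GRCm38). The sources do not say how reads shared by near-identical genes were counted. Scripts were tested on simulated data.

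The genes described and all lists were chosen with earlier results of these data known. Genes named are the 10, *Scg5*, *Pcsk1n*, *Nucb1*, *Cadps2*, *Creb3l1*, *Pomc*, *Pcsk1* and, per other list, up to 2 largest rises and 2 largest falls among genes called whose lines did not overlap and whose mean normalised count reached 100. Some genes that this rule took are not reported here. *Pthlh*, *Snap25*, *Atp7a*, *Rest*, *Pitx1*, *Crhr1*, *Avpr1b*, *Nr5a1*, *Cd68* and *Pecam1* were named after their values were seen. Alternatives were DESeq2 1.42.0, RLE size factors, library totals, no filter, at least 10 counts in every library, a replicate block, other thresholds, offsets for GC content and length (5 degrees of freedom each) and each library left out. A fit without robust estimation and levels by longest transcript were added after seeing the data.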

Additional observations from a re-analysis of the deposited data

How the results depend on the processing

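Among the 10 genes, 179 of 180 refits of the log2 fold change kept their direction and their side of the threshold, and *Nucb2* alone changed sign, from -0.029 to 0.031 without knockdown replicate 2 (leave-one-out range -0.059 to 0.031). With each library left out, 6 were called higher and 2 lower, and 5408 to 6026 genes were called in all. Requiring at least 1.5-fold left 1108 genes, 470 higher and 638 lower, and of the 10 genes 3 higher and 1 lower, which follows from the stricter rule. Over all genes that the naming rule took, 571 refits kept their call, 2 lost it (*Atp2c1* and *Iapp*, above) and 2 gained it: *Scg5* was called lower with the replicate block (adjusted p = 0.0049) and without knockdown replicate 4 (adjusted p = 0.0065), while corrected for GC content and length it was at -0.0065 (adjusted p = 0.85). The replicate numbers share only a digit in the labels: deviations of same-numbered libraries correlated at -0.13 to 0.13, and the replicate block moved the genes called from 5837 to 6013 (3067 higher and 2946 lower) and changed no other call among the genes that the rule took. For the ratios the replicate block gave the same differences (-0.11 for *Chga* to *Chgb*, 0.67 for *Scg2* to *Chga*, 0.56 for *Scg2* to *Chgb*, -0.22 for *Scg3* to *Chga*, -1.22 for *Ptprn* to *Ptprn2* and -0.22 for *Nucb2* to *Nucb1*), with an exact adjusted p of 0.0625, the smallest that 5 pairs allow. With each library left out, the differences stayed at -0.12 to -0.099, 0.65 to 0.69, 0.55 to 0.58, -0.24 to -0.20, -1.25 to -1.20 and -0.25 to -0.15, in that order. Per kilobase of longest transcript, 7 of the 10 control levels moved by more than 1 SD, among them *Chga* (48232) and *Cadps* (77.2).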

Other observations

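Other genes on the lists moved with or against the 10 and are given as values, chosen after they were seen. In docking and priming, *Sytl4* (granuphilin), a Rab27 effector of secretory granules, had a log2 fold change of 0.43 (SE 0.033), *Rims2*, an active zone scaffold, of 0.28 (SE 0.032) and *Vamp2*, the granule SNARE, of 0.17 (SE 0.030), and all passed the quasi-likelihood test (adjusted p = 1.6e-14, 1.9e-09 and 4.6e-06). *Doc2b*, a calcium sensor, had a log2 fold change of -1.29 (SE 0.19) at 47.7 to 90.5 normalised counts in the control line and 18.2 to 41.8 in the knockdown line. *Unc13a* (Munc13-1), a priming factor like *Cadps*, fell slightly (-0.12, SE 0.028). Among the regulators, *Insm1* rose by a log2 fold change of 0.36 (SE 0.041), *Ptbp2* by 0.43 (SE 0.063) and *Ptbp1* by 0.16 (SE 0.020). *Kalrn*, which encodes a PAM-binding exchange factor, rose by 0.68 (SE 0.12) from a low level of 59.9 to 69.5 normalised counts in control libraries. In 64 groups of 5 libraries examined for a library far from its group, 0 exceeded Dixon's value of 0.71, where about 3.2 would be expected by chance. Each group was 1 line of a gene that the naming rule took, so *Gm42418* was not examined.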
